A study of Mus musculus with 11 samples.

Results

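Messenger RNA of 37 genes of the lysosome was followed in mouse limb muscle stem cells of old and middle-aged animals. The genes were taken by symbol from a fixed list of cathepsins, other acid hydrolases, their cofactors, membrane proteins and the transcription factor Tfeb, and all 37 were among the 20640 symbols of the deposited table. The study has 11 bulk RNA-seq libraries of YFP+ cells sorted from Pax7-CreERT2;Rosa-YFP mice, in which Cre recombinase made in Pax7-expressing cells switches on a fluorescent reporter once tamoxifen is given. Animals of every group received tamoxifen (240 mg/kg for 5 days) at 12 to 14 weeks of age, and the sort removed cells positive for Sca-1, CD31 or CD45.

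The YFP+ cells of geriatric mice (over 28 months) were gated by surface VCAM1, a cell adhesion molecule of muscle stem cells, into VCAM1-Neg (3 libraries), VCAM1-Low (2 libraries) and VCAM1-High (3 libraries). The Mid-age group (3 libraries) came from mice of 10 to 14 months by the sample labels and 12 to 14 months by the protocol. No VCAM1 gate is named for the Mid-age libraries, so age, gating and the time since labelling change together in comparisons with them and cannot be told apart. The library titles are followed here for the gate names. The series text names its lower gates differently, and which name matches which was not stated. Whether the replicates of a group came from different animals is not stated, and the p-values cover the spread between libraries, which may be technical.

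Lysosomes are acidic compartments in which hydrolases break down proteins, glycans and lipids delivered by endocytosis and autophagy. Most of the soluble enzymes reach them through a mannose 6-phosphate tag, and heavily glycosylated membrane proteins such as LAMP1 line the compartment. TFEB, a transcription factor held in the cytoplasm while mTORC1 is active, binds an E-box (CACGTG) with preferred flanks in the promoters of many lysosomal genes. Quiescent muscle stem cells depend on autophagy and lysosomal clearance to keep their quiescent state.

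Promoter sequences are shown for 2 members that changed and hold no CACGTG in the window searched, followed by stretches around the E-box of 4 members that do hold it, because members of both kinds fell in VCAM1-Neg cells. Windows are RefSeq's for build GRCm38.p6, whereas the processing notes of the study name GRCm39. They span 250 bases before to 50 bases after the annotated start. The sequences run 5' to 3' on the gene's own strand, with CACGTG in capitals. The 250 bases before the start of Ctsz lie at chr2:174439040-174439289 (minus strand), and those of Ppt1 at chr4:122835977-122836226 (plus strand). The stretch of Naglu lies at chr11:101070010-101070036 (plus strand), that of Glb1 at chr9:114401009-114401055 (plus strand), that of Gla at chrX:134601173-134601253 (minus strand) and that of Lamp1 at chr8:13159079-13159160 (plus strand).
Ctsz: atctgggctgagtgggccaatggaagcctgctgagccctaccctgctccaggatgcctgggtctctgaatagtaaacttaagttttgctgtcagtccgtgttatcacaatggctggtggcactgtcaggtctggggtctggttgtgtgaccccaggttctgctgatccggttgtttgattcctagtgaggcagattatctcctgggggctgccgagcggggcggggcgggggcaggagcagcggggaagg
Ppt1: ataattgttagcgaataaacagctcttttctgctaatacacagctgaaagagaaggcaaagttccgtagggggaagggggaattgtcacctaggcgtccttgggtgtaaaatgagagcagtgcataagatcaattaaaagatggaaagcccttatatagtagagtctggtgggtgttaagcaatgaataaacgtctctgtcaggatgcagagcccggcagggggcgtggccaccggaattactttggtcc
Naglu: aaccttcaggtCACGTGgcccgaggtc
Glb1: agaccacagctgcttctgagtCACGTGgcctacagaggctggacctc
Gla: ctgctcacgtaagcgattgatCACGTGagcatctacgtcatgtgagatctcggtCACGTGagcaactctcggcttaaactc
Lamp1: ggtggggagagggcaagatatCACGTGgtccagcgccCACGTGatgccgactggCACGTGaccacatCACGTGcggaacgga
The Lamp1 stretch holds 4 copies of CACGTG and that of Gla holds 2.

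Windows were found for 33 of the 37 members. The window of Ctsl may not be its main promoter, since RefSeq's start lies at the start of an exon that a GENCODE transcript places after a first exon. TCACGTG, searched on both strands, stood in 11 of these 33 members (33.3%), against 4.29% of 27025 genes with windows of the same length. Without Ctsl, which lacks it, the share was 11 of 32 (34.4%), a count chosen after seeing the data. The members are Lgmn, Ctsa, Ctsd, Glb1, Gaa, Gla, Naglu, Sgsh, Arsa, Lamp1 and Mcoln1. The longer TCACGTGA, which contains it, stood in Ctsa, Ctsd, Gla and Mcoln1 (12.1% of 33), against 1.12% of genes. A match describes letters in the window and does not show binding.

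Members ranged widely in level. RPKM values, reads per kilobase of gene length relative to library depth, were used as deposited by the authors. They are per length, but the gene lengths used were not given, so levels of different genes are compared only roughly. Over the 11 libraries 7 members averaged 100 RPKM or more (Ctsl, Psap, Ctsd, Ctsz, Lamp1, Ctsb and Lamp2), 22 averaged 10 to 100 RPKM and 8 averaged under 10 RPKM. Ctsl led with a mean of 393 RPKM, at the 98.6th percentile of the genes tested, and Sgsh was lowest with a mean of 0.855 RPKM. The highest library was less than 2 times the lowest for 14 members, and at least 4 times the lowest for 7 (Ctsc, Ctsk, Ctss, Glb1, Hexa, Naglu and Sgsh).

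**Figure D1:**
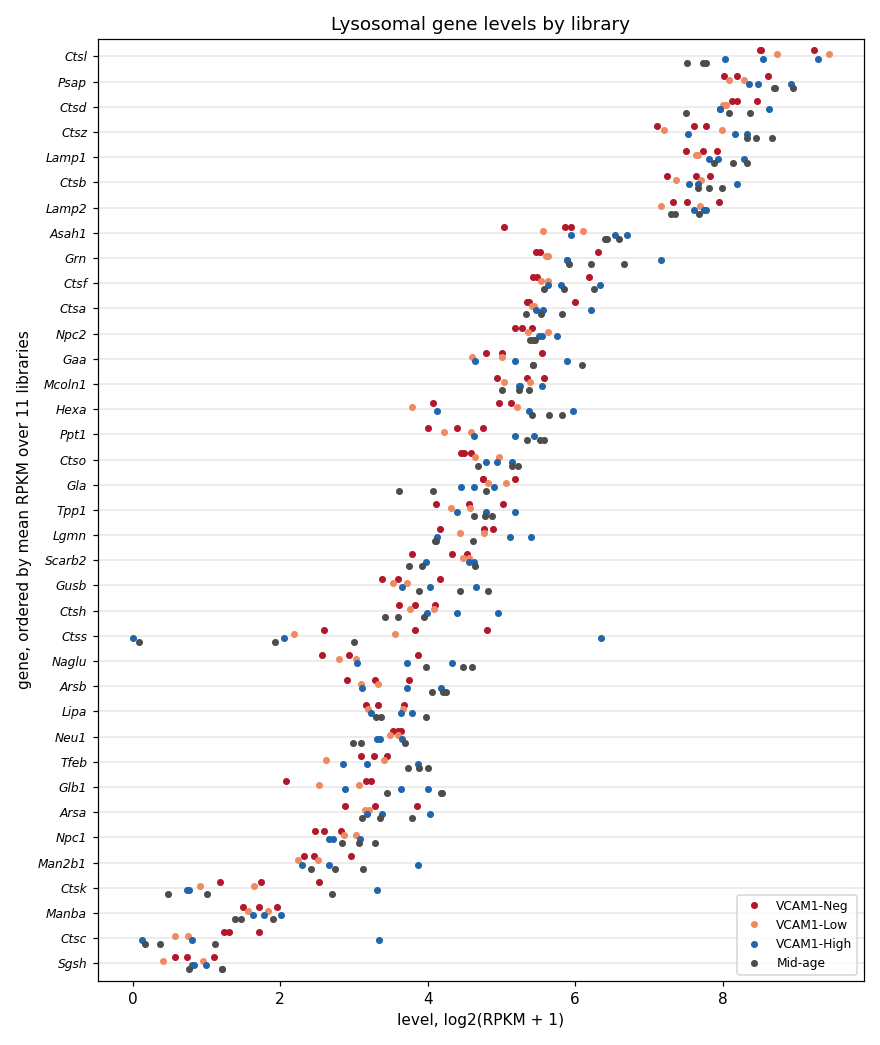
Level of each of the 37 lysosomal genes on the log2(RPKM + 1) scale, with genes ordered down the page by their mean RPKM and 1 point per library coloured by group. Ctsl stands at the top with a mean of 393 RPKM and Sgsh at the bottom with 0.855 RPKM, and the points of Ctss, Ctsc and Ctsk spread widely within VCAM1-High.

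Libraries were estimated to hold 20.1 to 29.8 M counted reads (M for mega). VCAM1-High replicate 3 stood apart for the lysosomal genes: it was the highest library for 15 of 37 members (40.5%), against 10.4% of all genes tested. Of the 14 macrophage markers examined, all 14 were in the table, and their summed level was 120 to 247 RPKM in VCAM1-Neg, 76.5 to 94.8 RPKM in VCAM1-Low, 31.3, 35.6 and 987 RPKM in VCAM1-High replicates 1, 2 and 3, and 20.7 to 165 RPKM in Mid-age. Adgre1, Csf1r, C1qc, Mrc1, Fcgr1, Aif1 and Tyrobp were listed at 0 in VCAM1-High replicate 1. Of 8 myofibre markers, all 8 were in the table, and they summed to 628 to 6510 RPKM in VCAM1-Neg, 48.4 to 145 RPKM in VCAM1-Low, 52.6 to 124 RPKM in VCAM1-High and 134 to 285 RPKM in Mid-age. None of the 8 was at 0 in any library. The 8 muscle stem cell markers summed to 1390 to 2110 RPKM in VCAM1-Neg, 1870 to 2280 RPKM in VCAM1-Low, 1870 to 3760 RPKM in VCAM1-High and 2800 to 3690 RPKM in Mid-age. Vcam1, the gene of the molecule used for gating, is among these 8, so the sums are not independent of the gate. Most of each sum came from Chodl (449 to 1720 RPKM over the 11 libraries) and Sdc4 (701 to 1250 RPKM). Pax7, also on the list, stood at 1.71 to 7.85 RPKM. Vcam1 stood at 122, 70.4 and 48.6 RPKM in VCAM1-Neg, 177 and 115 RPKM in VCAM1-Low, 418, 188 and 263 RPKM in VCAM1-High, and 336, 344 and 230 RPKM in Mid-age. In bulk samples, fewer cells of a type and less RNA per cell cannot be told apart.

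VCAM1-Neg cells were compared with Mid-age cells to ask how geriatric cells gated as negative for surface VCAM1 differ from YFP+ cells of younger adults. Ctsl rose 2.13-fold, and Ctsz, Ppt1 and Naglu fell to 0.503, 0.467 and 0.426 times the Mid-age level, on the RPKM + 1 scale. These were the only members of 37 that passed the test, an adjusted p under 0.05 from limma on log2(RPKM + 1) with Benjamini-Hochberg adjustment over 11568 genes. All 37 members passed the filter on low values. The 4 called members are 10.8% of the set, against a background of 14.4% of all genes tested (7.06% higher and 7.38% lower), so the share was not above the background. An unadjusted p under 0.05 was reached by 11 members, 2 higher and 9 lower, against 33.8% of all genes. Members had a median log2 fold change of -0.19, against -0.02 over all genes, and 14 of 37 (37.8%) had a positive value, against 48.4% of all genes. The members' median was -0.09 without VCAM1-Neg replicate 2 and -0.38 without VCAM1-Neg replicate 3.

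Ctsl encodes cathepsin L, an endopeptidase of the cysteine class. Ctsl stood at 366, 604 and 364 RPKM in VCAM1-Neg, 424 and 692 RPKM in VCAM1-Low, 372, 625 and 260 RPKM in VCAM1-High, and 182, 218 and 212 RPKM in Mid-age. All 8 geriatric libraries lay above all 3 Mid-age libraries, and within each gate replicate 2 was the highest. The log2 fold change of Ctsl in VCAM1-Neg against Mid-age was 1.09 ± 0.32 (SE, adjusted p = 0.0467).

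Ctsz encodes cathepsin Z, a carboxypeptidase of the same class. Ctsz stood at 195, 137 and 217 RPKM in VCAM1-Neg, 253 and 146 RPKM in VCAM1-Low, 286, 183 and 321 RPKM in VCAM1-High, and 407, 321 and 350 RPKM in Mid-age. The VCAM1-Neg and Mid-age libraries did not overlap, and within each geriatric gate replicate 2 was the lowest, the opposite of Ctsl. Ctsz had a log2 fold change of -0.99 ± 0.27 (SE, adjusted p = 0.0388). The ratio of Ctsl to Ctsz was 1.88, 4.40 and 1.68 in VCAM1-Neg, 1.68 and 4.74 in VCAM1-Low, 1.30, 3.41 and 0.811 in VCAM1-High, and 0.447, 0.678 and 0.605 in Mid-age. This ratio was chosen after its values were seen and was not tested.

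Ppt1 encodes palmitoyl-protein thioesterase 1, which removes fatty acyl groups from cysteines of proteins under breakdown. Ppt1 stood at 20.0, 15.1 and 25.9 RPKM in VCAM1-Neg, 23.1 and 17.6 RPKM in VCAM1-Low, 35.5, 23.8 and 42.6 RPKM in VCAM1-High, and 46.8, 39.6 and 44.9 RPKM in Mid-age. The 3 VCAM1-Neg libraries lay below every Mid-age library, while VCAM1-High overlapped Mid-age. Ppt1 had a log2 fold change in VCAM1-Neg against Mid-age of -1.10 ± 0.25 (SE, adjusted p = 0.0203), the smallest adjusted p of the members in this comparison.

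Naglu encodes alpha-N-acetylglucosaminidase, which takes part in heparan sulfate breakdown. Naglu stood at 6.66, 4.92 and 13.6 RPKM in VCAM1-Neg, 7.15 and 5.93 RPKM in VCAM1-Low, 12.2, 7.21 and 19.1 RPKM in VCAM1-High, and 23.2, 14.8 and 21.3 RPKM in Mid-age. The highest VCAM1-Neg library was just below the lowest Mid-age library. Naglu had a log2 fold change of -1.23 ± 0.37 (SE, adjusted p = 0.0483).

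The calls of Ctsl, Ctsz and Naglu lay close to the threshold. When each of the 11 libraries was left out in turn, Ctsl passed in 4 of 11 fits (adjusted p 0.0272 to 0.17), Ctsz in 4 of 11 (0.0292 to 0.146), Naglu in 3 of 11 (0.0323 to 0.175) and Ppt1 in 8 of 11 (0.0141 to 0.0837). Ppt1 lost its call without VCAM1-Neg replicate 2, Mid-age replicate 1 or Mid-age replicate 3, and without any of these 3 libraries 0 members passed. The calls over all genes fell as well, from 1671 to 339, 511 and 789 in these 3 fits. Of the set, 1 member passed without VCAM1-Neg replicate 1 or VCAM1-High replicate 1 (1220 and 1323 genes in all). Without VCAM1-Neg replicate 3 or Mid-age replicate 2, 2 members passed (823 and 993 genes in all). Directions of the 4 members stayed the same in all 20 alternative fits. All 8 myofibre markers also passed the test as higher in VCAM1-Neg than in Mid-age, and 3 of 8 muscle stem cell markers passed as lower. The muscle stem cell list holds Vcam1, the gene of the gating molecule. Of the fibro-adipogenic markers, 7 were tested, and 1 passed as higher and 2 as lower. The 1 lymphocyte marker tested passed as higher. No marker passed in the macrophage, neutrophil, endothelial, erythroid, Schwann or smooth muscle and pericyte lists, although the erythroid markers summed to 194 to 650 RPKM in VCAM1-Neg and 5.77 to 165 RPKM in Mid-age, and the neutrophil markers to 2.34 to 16.2 RPKM in VCAM1-Neg and 0 to 0.737 RPKM in Mid-age. Their part in the lysosomal values was not tested.

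**Figure D2:**
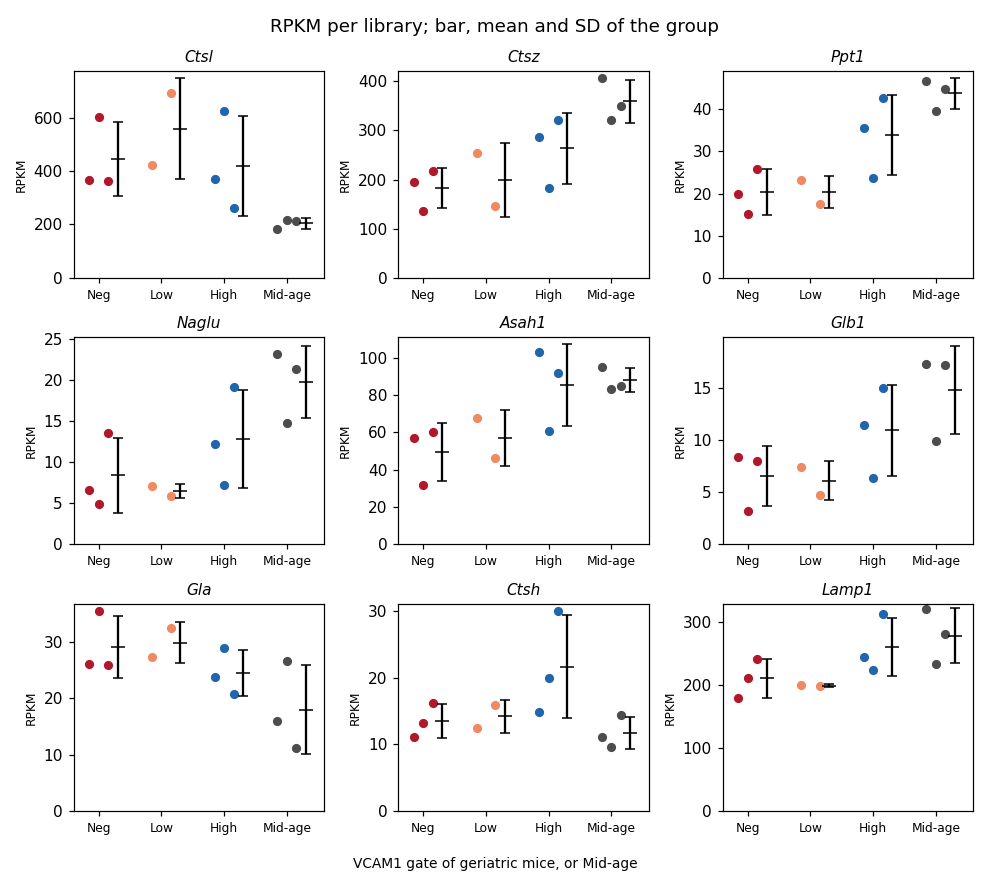
RPKM in every library for 9 lysosomal genes, with groups from left to right VCAM1-Neg, VCAM1-Low, VCAM1-High and Mid-age, and bars for the group mean and SD. The geriatric points of Ctsl all lie above 182 to 218 RPKM, the range of Mid-age, and the VCAM1-Neg points of Ctsz, Ppt1 and Naglu lie below every Mid-age point.

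Among the other cysteine cathepsins, no member passed in VCAM1-Neg against Mid-age, and the median log2 fold change of the 10 genes of the class, legumain included, was 0.26. Ctso, a little-studied cysteine cathepsin, stood at 21.6, 23.1 and 20.9 RPKM in VCAM1-Neg, 24.0 and 30.3 RPKM in VCAM1-Low, 34.5, 29.7 and 26.6 RPKM in VCAM1-High, and 24.7, 34.2 and 36.4 RPKM in Mid-age. VCAM1-Neg lay below every library of the other groups, and its log2 fold change against Mid-age was -0.50 ± 0.19 (SE, adjusted p = 0.0916). Lgmn, the asparaginyl endopeptidase that processes other cathepsins, stood at 17.0, 26.2 and 28.5 RPKM in VCAM1-Neg, 20.6 and 26.2 RPKM in VCAM1-Low, 16.4, 33.8 and 41.4 RPKM in VCAM1-High, and 23.4, 16.2 and 16.3 RPKM in Mid-age. These ranges overlapped. Ctsb, an endopeptidase and dipeptidyl carboxypeptidase, ranged over 150 to 292 RPKM, and Ctsf over 42.1 to 80.1 RPKM.

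The aspartic and serine peptidases had a median log2 fold change of 0.00 between VCAM1-Neg and Mid-age, and none passed. Ctsd, the aspartic protease cathepsin D, stood at 279, 292 and 353 RPKM in VCAM1-Neg, 262 and 256 RPKM in VCAM1-Low, 249, 249 and 396 RPKM in VCAM1-High, and 330, 181 and 271 RPKM in Mid-age. Its groups overlapped in VCAM1-Neg against Mid-age, with a log2 fold change of 0.28 ± 0.25 (SE, adjusted p = 0.463). Tpp1, a tripeptidyl peptidase, stood at 22.6, 16.3 and 31.6 RPKM in VCAM1-Neg, 22.8 and 19 RPKM in VCAM1-Low, 26.7, 20.0 and 35.3 RPKM in VCAM1-High, and 28.3, 23.8 and 26.5 RPKM in Mid-age. Ctsa, the protective protein of neuraminidase and beta-galactosidase, ranged over 39.5 to 73.0 RPKM.

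The 9 glycosidases, which cut sugars from glycans and glycolipids, had a median log2 fold change of -0.53 in VCAM1-Neg against Mid-age, and Naglu alone passed. Glb1 is the beta-galactosidase whose activity is used as a stain of senescent cells. Glb1 stood at 8.36, 3.22 and 7.97 RPKM in VCAM1-Neg, 7.41 and 4.76 RPKM in VCAM1-Low, 11.4, 6.34 and 15 RPKM in VCAM1-High, and 17.3, 9.94 and 17.2 RPKM in Mid-age. VCAM1-Neg lay below every Mid-age library, but the log2 fold change of Glb1, -1.12 ± 0.37, did not pass (SE, adjusted p = 0.0652).

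Hexa, the alpha subunit of hexosaminidase A, stood at 30.3, 15.9 and 34.1 RPKM in VCAM1-Neg, 36.0 and 12.8 RPKM in VCAM1-Low, 40.4, 16.5 and 61.6 RPKM in VCAM1-High, and 48.9, 41.8 and 55.7 RPKM in Mid-age. Replicate 2 was the lowest library of each geriatric gate, and the log2 fold change of Hexa in VCAM1-Neg against Mid-age was -0.90 ± 0.48 (SE, adjusted p = 0.206). Gla, alpha-galactosidase A, stood at 26.0, 35.4 and 25.8 RPKM in VCAM1-Neg, 27.2 and 32.4 RPKM in VCAM1-Low, 23.7, 28.8 and 20.8 RPKM in VCAM1-High, and 15.9, 26.6 and 11.2 RPKM in Mid-age. Gla ran the other way from most glycosidases, with a log2 fold change of 0.74 ± 0.28 (SE, adjusted p = 0.0899), although 1 Mid-age library lay within the VCAM1-Neg range.

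Gaa, the acid alpha-glucosidase that breaks down glycogen, stood at 31.2, 26.7 and 45.8 RPKM in VCAM1-Neg, 31.2 and 23.2 RPKM in VCAM1-Low, 35.3, 24.0 and 58.1 RPKM in VCAM1-High, and 42.1, 42.2 and 67.0 RPKM in Mid-age. Gusb, beta-glucuronidase, stood at 11.1, 9.39 and 16.9 RPKM in VCAM1-Neg, 12.2 and 10.5 RPKM in VCAM1-Low, 15.4, 11.6 and 24.2 RPKM in VCAM1-High, and 27.1, 13.7 and 20.7 RPKM in Mid-age. Both overlapped between VCAM1-Neg and Mid-age. Manba, beta-mannosidase and the lowest of the class, stood at 2.88, 2.27 and 1.83 RPKM in VCAM1-Neg, 2.57 and 1.96 RPKM in VCAM1-Low, 2.1, 2.45 and 3.05 RPKM in VCAM1-High, and 1.62, 1.77 and 2.75 RPKM in Mid-age. The alpha-mannosidase Man2b1 ranged over 3.75 to 13.6 RPKM and the sialidase Neu1 over 6.94 to 11.9 RPKM.

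None of the 3 sulfatases passed in VCAM1-Neg against Mid-age, and their median log2 fold change was -0.26. Arsb, which removes sulfate from dermatan and chondroitin sulfate, stood at 8.80, 6.52 and 12.4 RPKM in VCAM1-Neg, 9.02 and 7.58 RPKM in VCAM1-Low, 12.2, 7.60 and 17.1 RPKM in VCAM1-High, and 18.0, 17.4 and 15.7 RPKM in Mid-age. VCAM1-Neg lay below Mid-age without overlap, with a log2 fold change of -0.85 ± 0.28 (SE, adjusted p = 0.0608). Sgsh, the heparan sulfamidase, stood at 0.670, 0.491 and 1.14 RPKM in VCAM1-Neg, 0.944 and 0.326 RPKM in VCAM1-Low, 0.740, 0.781 and 1 RPKM in VCAM1-High, and 1.31, 0.695 and 1.32 RPKM in Mid-age. Arsa, which acts on sulfatide, ranged over 6.37 to 15.3 RPKM.

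Of the lipid and acyl hydrolases, Ppt1 passed and the class median was -0.86. Asah1, acid ceramidase, stood at 56.9, 31.8 and 60.4 RPKM in VCAM1-Neg, 67.6 and 46.3 RPKM in VCAM1-Low, 103, 60.8 and 92.1 RPKM in VCAM1-High, and 95.2, 83.3 and 85.1 RPKM in Mid-age. VCAM1-Neg lay below every VCAM1-High and every Mid-age library, and the log2 fold change against Mid-age was -0.86 ± 0.28 (SE, adjusted p = 0.0585). Lipa, lysosomal acid lipase, stood at 7.95, 9.05 and 11.8 RPKM in VCAM1-Neg, 8.13 and 11.7 RPKM in VCAM1-Low, 8.40, 11.5 and 12.8 RPKM in VCAM1-High, and 14.7, 8.87 and 9.31 RPKM in Mid-age, with overlapping groups.

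The 3 cofactors and soluble binders did not pass in VCAM1-Neg against Mid-age. Psap, the precursor of the saposins that present lipids to hydrolases, stood at 293, 258 and 391 RPKM in VCAM1-Neg, 313 and 270 RPKM in VCAM1-Low, 356, 328 and 484 RPKM in VCAM1-High, and 418, 414 and 494 RPKM in Mid-age. VCAM1-Neg lay below Mid-age without overlap, with a log2 fold change of -0.51 ± 0.21 (SE, adjusted p = 0.112). Grn, progranulin, stood at 45.0, 43.1 and 78.3 RPKM in VCAM1-Neg, 48.5 and 47.5 RPKM in VCAM1-Low, 58.5, 58.4 and 142 RPKM in VCAM1-High, and 73.0, 59.5 and 100 RPKM in Mid-age. Npc2, the soluble protein that hands cholesterol to Npc1, stood at 35.4, 37.8 and 41.8 RPKM in VCAM1-Neg, 48.8 and 40.2 RPKM in VCAM1-Low, 52.7, 44.6 and 45.9 RPKM in VCAM1-High, and 42.8, 40.9 and 41.9 RPKM in Mid-age. Npc2 varied less across the 11 libraries than any other member, with its highest library at 1.49 times its lowest.

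The 5 membrane proteins had a median log2 fold change of 0.08 in VCAM1-Neg against Mid-age, and none passed. Lamp1, the glycoprotein that lines the lysosome, stood at 180, 212 and 242 RPKM in VCAM1-Neg, 201 and 198 RPKM in VCAM1-Low, 245, 225 and 313 RPKM in VCAM1-High, and 321, 234 and 281 RPKM in Mid-age. Its log2 fold change was -0.40 ± 0.19 (SE, adjusted p = 0.169), and 1 VCAM1-Neg library overlapped Mid-age. Npc1, the membrane cholesterol transporter, stood at 5.04, 4.56 and 6.09 RPKM in VCAM1-Neg, 7.16 and 6.27 RPKM in VCAM1-Low, 5.56, 7.46 and 5.36 RPKM in VCAM1-High, and 8.75, 7.37 and 6.16 RPKM in Mid-age. Lamp2, needed for fusion of autophagosomes with lysosomes, ranged over 143 to 247 RPKM. Scarb2, which carries glucocerebrosidase to the lysosome, ranged over 12.4 to 23.9 RPKM, and the calcium channel Mcoln1 over 29.6 to 46.6 RPKM.

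Tfeb itself stood at 8.69, 7.59 and 9.95 RPKM in VCAM1-Neg, 9.65 and 5.15 RPKM in VCAM1-Low, 8.09, 6.23 and 13.6 RPKM in VCAM1-High, and 12.3, 13.8 and 15 RPKM in Mid-age. VCAM1-Neg and VCAM1-Low lay below every Mid-age library, while 1 VCAM1-High library overlapped them. The log2 fold change of Tfeb was -0.59 ± 0.27 in VCAM1-Neg (SE, adjusted p = 0.152), -0.86 in VCAM1-Low (adjusted p = 0.116) and -0.57 in VCAM1-High (adjusted p = 0.362), each against Mid-age. Members with TCACGTG in the promoter window had a median log2 fold change of -0.08 in VCAM1-Neg against Mid-age (n = 11), and the 22 members without it had one of -0.18, or -0.19 for 21 members with Ctsl left out. Within the E-box group shown above, Naglu fell, and the values of Glb1 (-1.12), Lamp1 (-0.40) and Gla (0.74) did not pass. Neither of Ctsz and Ppt1, which fell, holds TCACGTG in its window.

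Counted without a test, 13 of 37 members had VCAM1-Neg and Mid-age libraries that did not overlap, against 39% of all genes tested (18.7% higher and 20.3% lower). Ctsl and Ctsc were the 2 higher ones, and Psap, Ctsz, Asah1, Hexa, Ppt1, Ctso, Naglu, Arsb, Glb1, Tfeb and Npc1 the 11 lower ones.

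**Figure D3:**
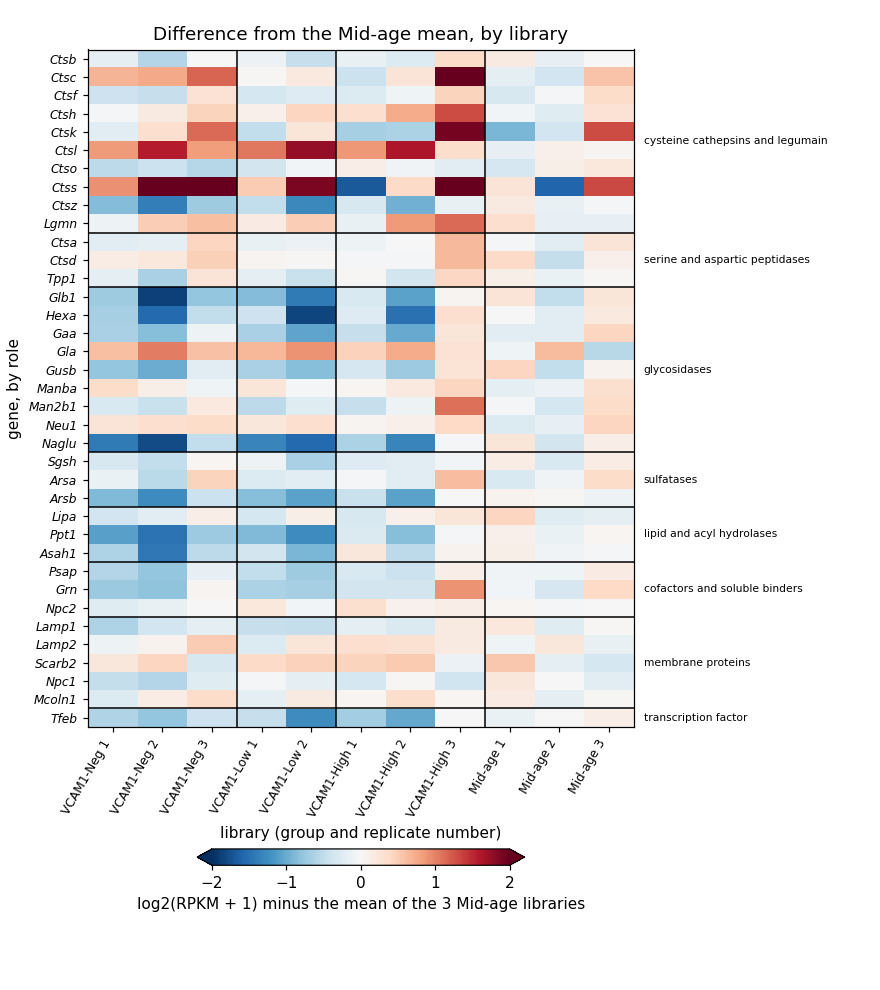
Difference of each library from the mean of the 3 Mid-age libraries on the log2(RPKM + 1) scale, for the 37 genes ordered by role and the 11 libraries from VCAM1-Neg at the left to Mid-age at the right. Ctsl and Gla are above the Mid-age mean in every geriatric library, whereas Ctsz, Naglu and Ppt1 are below it in VCAM1-Neg and VCAM1-Low.

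VCAM1-High cells were compared with Mid-age cells as the geriatric gate with high surface VCAM1. No member of 37 passed limma's test, against a background of 0.605% of all genes (70 of 11568). Unadjusted p was under 0.05 for 2 members, Ctsh and Ctsl, both higher in VCAM1-High, against 14.9% of all genes. The median log2 fold change of the members was 0.03, against 0.04 over all genes, but it was -0.17 without VCAM1-High replicate 3, -0.04 without Mid-age replicate 2, 0.10 without Mid-age replicate 3, 0.15 without VCAM1-High replicate 2 and 0.17 without VCAM1-High replicate 1. It was -0.04 with libraries scaled by median of ratios. The deviations of same-numbered libraries of the 2 groups from their group means correlated at 0.21, 0.33 and 0.55. VCAM1-High replicate 1 correlated more with Mid-age replicate 2, at 0.33, and geriatric and Mid-age libraries cannot share animals. The numbers are thus not established as pairs in this comparison. With the replicate number as a block Ctsl and Ctsh were called as higher, against 6.98% of all genes called and 4.17% called as higher.

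Ctsh, an aminopeptidase of the cysteine class, stood at 11.2, 13.2 and 16.2 RPKM in VCAM1-Neg, 12.5 and 16.0 RPKM in VCAM1-Low, 14.9, 20.0 and 30.1 RPKM in VCAM1-High, and 11.1, 9.67 and 14.4 RPKM in Mid-age. VCAM1-High lay above Mid-age without overlap. The log2 fold change of Ctsh was 0.80 ± 0.26 without the block (SE, adjusted p = 0.182), and its adjusted p was 0.0238 with the block. That of Ctsl was 0.95 ± 0.32 without the block (SE, adjusted p = 0.209), and its adjusted p was 0.0310 with the block.

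With the block and 1 library left out at a time, Ctsl and Ctsh each passed in 6 of 11 fits. Without VCAM1-High replicate 3, the library with the macrophage marker sum of 987 RPKM, the adjusted p of Ctsh was 0.0706 and that of Ctsl was 0.0153. Without VCAM1-High replicate 1, VCAM1-High replicate 2 or Mid-age replicate 2, neither Ctsl nor Ctsh passed. Ctsl also lost its call without either VCAM1-Low library, and Ctsh without Mid-age replicate 3. Ctsl, Npc2 and Ctsh were higher and Ctsz lower in every VCAM1-High library than in any Mid-age library, 4 of 37 members against 20.2% of all genes.

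**Figure D4:**
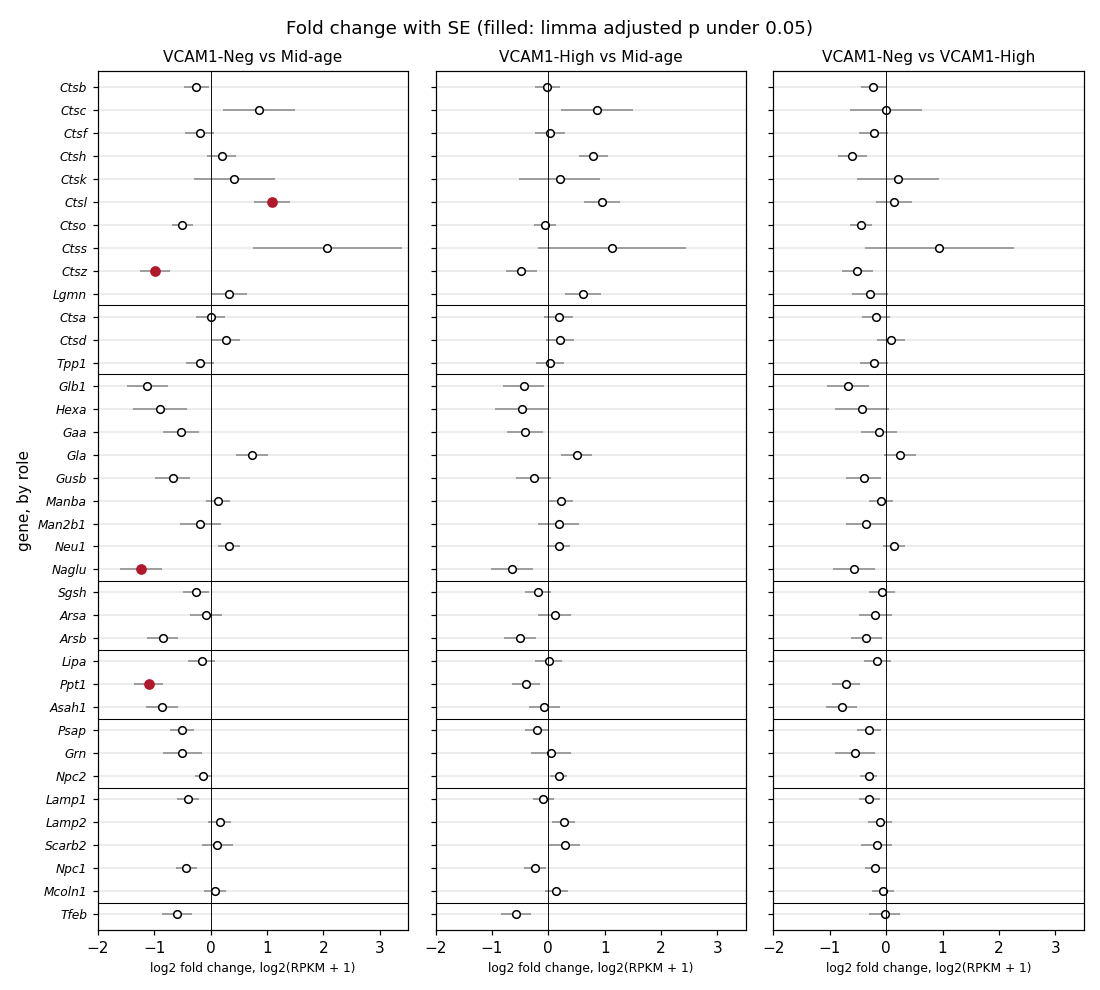
Log2 fold change of each lysosomal gene with its standard error on the log2(RPKM + 1) scale, in VCAM1-Neg against Mid-age, VCAM1-High against Mid-age and VCAM1-Neg against VCAM1-High. Filled points passed limma's adjusted p of 0.05, and the 4 filled points are Ctsl, Ctsz, Naglu and Ppt1 in the first panel.

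VCAM1-Neg and VCAM1-High cells, both from geriatric mice, were compared to ask what differs with surface VCAM1 at one age. No member of 37 passed limma's test, and neither did any other gene (percent called 0%), the smallest adjusted p over all genes being 0.0501. Unadjusted p was under 0.05 for 4 members (Ppt1, Asah1, Ctso and Ctsh), all lower in VCAM1-Neg, and for 755 genes in all, 6.53%. The log2 fold change was positive for 6 of 37 members (16.2%), against 39.2% of all genes, and the members' median was -0.22, against -0.07 over all genes. Single libraries moved this median: it was -0.04 without VCAM1-High replicate 3 (all genes -0.06), -0.10 without VCAM1-Neg replicate 2, -0.32 without VCAM1-High replicate 1, -0.36 without VCAM1-High replicate 2 and -0.39 without VCAM1-Neg replicate 3. With libraries scaled by median of ratios it was -0.15.

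Same-numbered libraries of the 2 gates deviated together, with correlations of 0.41, 0.58 and 0.40. In a model of the 8 geriatric libraries with the replicate number as a block, 6 members fell in VCAM1-Neg, against a background of 4.42% of all genes called and 3.43% called as lower. They were Ppt1 (log2 fold change -0.71 ± 0.10, SE, adjusted p = 0.0175), Asah1 (-0.79 ± 0.11, adjusted p = 0.0175), Ctsz (-0.51 ± 0.10, adjusted p = 0.0410), Ctsh (-0.60, adjusted p = 0.0423), Glb1 (-0.68 ± 0.15, adjusted p = 0.0490) and Grn (-0.55 ± 0.12, adjusted p = 0.0496). With the block over all 11 libraries, 0 of 37 members passed, against 0.562% of all genes.

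Leaving out 1 of the 8 geriatric libraries changed the count of 6 to between 0 and 6 members. It was 0 without VCAM1-Neg replicate 2, VCAM1-Low replicate 1, VCAM1-Low replicate 2, VCAM1-High replicate 1 or VCAM1-High replicate 2, it was 3 without VCAM1-Neg replicate 1, and 5 without VCAM1-High replicate 3. It was 6 without VCAM1-Neg replicate 3, but Grn, Ctsh and Glb1 were then no longer among them. Of those 6 members and of the 5 without VCAM1-High replicate 3, Ctsc and Ctss were higher in VCAM1-Neg, with differences on the log2(RPKM + 1) scale of 1.10 and 0.50 for Ctsc and 2.59 and 1.77 for Ctss in numbers 1 and 2, and -1.63 and -1.54 in number 3. The calls over all genes changed as well, from 500 to 40 without VCAM1-Neg replicate 2, 101 without VCAM1-High replicate 1 and 19 without VCAM1-High replicate 2. They numbered 313 without VCAM1-Neg replicate 1, 890 without VCAM1-Neg replicate 3 and 800 without VCAM1-High replicate 3. Without VCAM1-High replicate 3, Asah1 and Ppt1 kept their calls, and Ctsz, Ctsh, Glb1 and Grn lost theirs. Myofibre markers summed to 628 to 6510 RPKM in VCAM1-Neg and 52.6 to 124 RPKM in VCAM1-High, and the part of these and of the macrophage markers in the members' values was not tested.

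Read number by number without a test, 21 of 37 members (56.8%) were lower in VCAM1-Neg than in VCAM1-High of the same number in all 3 pairs, against 30.6% of all genes. One member, Gla (2.7%), was higher in all 3 pairs, against 13.4% of all genes. With the libraries scaled by median of ratios, 16 of 37 members were lower in all 3 pairs, against 23.8% of genes, and 2 were higher. Asah1, Npc2 and Ctso were lower in every VCAM1-Neg library than in any VCAM1-High library, 3 of 37 against 11.4% of all genes.

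The VCAM1-Low gate, with 2 libraries, gave 0 called members in each of its comparisons. Against VCAM1-High no gene passed (0%), and unadjusted p was under 0.05 for 1 member and for 337 genes in all (2.91%). VCAM1-Neg against VCAM1-Low likewise had no gene called (0%), with 0 members and 217 genes (1.88%) at an unadjusted p under 0.05. Against Mid-age the background was 4.11%, unadjusted p was under 0.05 for 11 members and 26.4% of genes, and the smallest adjusted p of a member was 0.0515, for Ctsl. Ctsl there had a log2 fold change of 1.41 ± 0.36 (SE), and Ppt1 had one of -1.08 ± 0.28 (SE, adjusted p = 0.0519). The 2 VCAM1-Low libraries differed by replicate number in the same way as the other gates, with Ctsl higher and Ctsz, Hexa and Asah1 lower in replicate 2. A limma F test over the 4 groups called 0 of 37 members, against 3.32% of all genes, and 7 members had an unadjusted p under 0.05, against 21.9%.

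Ctss, Ctsc and Ctsk, cysteine cathepsins that are abundant in antigen-presenting cells, granule-bearing immune cells and osteoclasts, varied most between libraries of a group. Ctss stood at 5.03, 13.2 and 27.0 RPKM in VCAM1-Neg, 3.55 and 10.8 RPKM in VCAM1-Low, 0, 3.16 and 80.5 RPKM in VCAM1-High, and 2.81, 0.0661 and 7 RPKM in Mid-age. Ctsc stood at 1.35, 1.47 and 2.28 RPKM in VCAM1-Neg, 0.491 and 0.683 RPKM in VCAM1-Low, 0.0937, 0.750 and 9.17 RPKM in VCAM1-High, and 0.295, 0.126 and 1.17 RPKM in Mid-age. Ctsk stood at 1.28, 2.33 and 4.78 RPKM in VCAM1-Neg, 0.879 and 2.12 RPKM in VCAM1-Low, 0.663, 0.702 and 8.92 RPKM in VCAM1-High, and 0.397, 1.02 and 5.54 RPKM in Mid-age. Each of the 3 was highest in VCAM1-High replicate 3, and Ctss is listed at 0 in VCAM1-High replicate 1.

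The macrophage gene Lyz2, lysozyme, stood at 43.9, 53.7 and 174 RPKM in VCAM1-Neg, 23.5 and 30.8 RPKM in VCAM1-Low, 0.426, 6.82 and 591 RPKM in VCAM1-High, and 19.6, 1.72 and 95.5 RPKM in Mid-age. Lyz2 was lowest and highest in the same 2 libraries as Ctss and Ctsc. The part of macrophage RNA in the levels of Ctss, Ctsc and Ctsk was not tested, and none of these 3 genes passed in the model of all 11 libraries without the block. Without all number-3 libraries, Ctsc passed as higher in VCAM1-Neg against Mid-age, and Ppt1, Naglu and Arsb passed as lower. In that limma fit 826 of 11163 genes were called, and Ctsl (adjusted p = 0.0662) and Ctsz (adjusted p = 0.0709) did not pass.

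**Figure D5:**
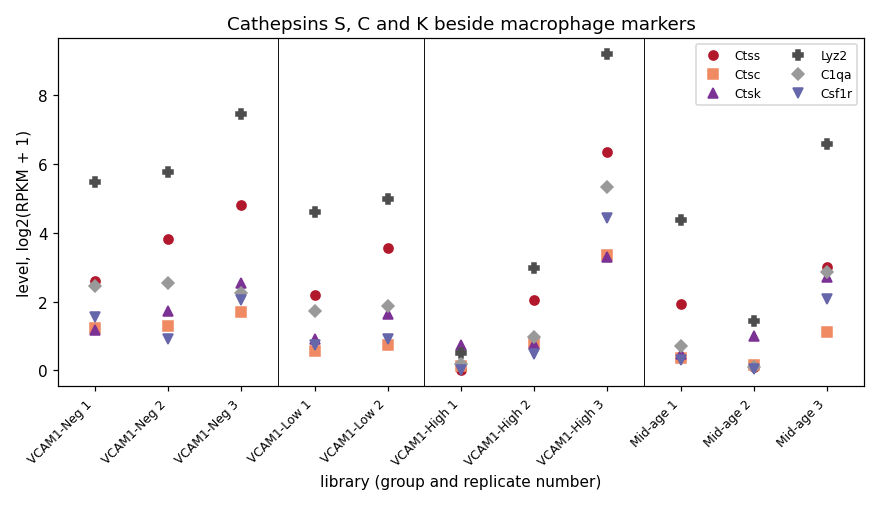
Levels of Ctss, Ctsc and Ctsk and of the macrophage markers Lyz2, C1qa and Csf1r in each library, on the log2(RPKM + 1) scale, with groups from left to right VCAM1-Neg, VCAM1-Low, VCAM1-High and Mid-age. All 6 genes are highest in VCAM1-High replicate 3, where Lyz2 reaches 591 RPKM and Ctss 80.5 RPKM.

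Other lysosome genes were read from 6 lists. Of the V-ATPase, the proton pump that acidifies the lysosome, 16 of 17 subunit genes were tested, and 1 rose and 1 fell in VCAM1-Neg against Mid-age, where 7.06% of all genes were called as higher and 7.38% as lower. Atp6v1b2, a subunit of the catalytic head, rose with a log2 fold change of 1.14 (adjusted p = 0.0295). Its partner Atp6v1a, the subunit that holds the catalytic site, fell with one of -1.01 (adjusted p = 0.0143). Atp6v1a stood at 35.2, 25.4 and 28.6 RPKM in VCAM1-Neg, 40.5 and 35.0 RPKM in VCAM1-Low, 57.5, 41.0 and 58.3 RPKM in VCAM1-High, and 71.2, 50.8 and 60.8 RPKM in Mid-age.

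Among 18 further hydrolases and their activators, 2 rose and 2 fell in VCAM1-Neg against Mid-age, where the background is the same. Aga, aspartylglucosaminidase, fell with a log2 fold change of -1.42 (adjusted p = 0.0135), and Sumf1, which activates sulfatases, with one of -0.66 (adjusted p = 0.0273). Dnase2a, an acid nuclease, rose with one of 1.08 (adjusted p = 0.0233), and Galc, galactosylceramidase, with one of 0.75 (adjusted p = 0.0490). In VCAM1-High against Mid-age none of the 18 passed, and the smallest p-values were those of Dnase2a (log2 fold change 0.94, adjusted p = 0.124) and Galc (0.58, adjusted p = 0.265).

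No gene passed in these comparisons among 13 tested further membrane proteins, 6 genes of mannose 6-phosphate sorting and 2 tested cystatins, the inhibitors of cysteine cathepsins. Ctns, the cystine exporter, had log2 fold changes of 0.53 in VCAM1-Neg (adjusted p = 0.0623) and 0.61 in VCAM1-High (adjusted p = 0.140), each against Mid-age. Laptm4a, a small lysosomal membrane protein, had one of -0.59 in VCAM1-Neg against Mid-age (adjusted p = 0.0530). Igf2r, the large mannose 6-phosphate receptor, had one of -0.88 (adjusted p = 0.0819) and Sort1, the sortilin receptor, one of -0.58 (adjusted p = 0.0996) in the same comparison. Cd63, a tetraspanin of late endosomes named in the series title, stood at 1690, 1990 and 1370 RPKM in VCAM1-Neg, 2250 and 2170 RPKM in VCAM1-Low, 2880, 2610 and 1490 RPKM in VCAM1-High, and 2730, 2230 and 1660 RPKM in Mid-age. Its VCAM1-Neg libraries lay below both VCAM1-Low libraries, a pair of groups in which 10.9% of all genes tested did not overlap. Every other pair of groups overlapped for Cd63.

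Of 10 tested genes for Tfeb-related factors and for the docking of mTORC1 on the lysosome, 1 rose and 2 fell in VCAM1-Neg against Mid-age. In that comparison 7.06% of all genes were called as higher and 7.38% as lower. Flcn, folliculin, which acts on the Rag GTPases that hold mTORC1 and Tfeb at the lysosome, stood at 46.8, 48.5 and 45.5 RPKM in VCAM1-Neg, 38.1 and 44.5 RPKM in VCAM1-Low, 30.8, 40.3 and 29.0 RPKM in VCAM1-High, and 17.4, 18.6 and 17.4 RPKM in Mid-age. All 8 geriatric libraries lay above all 3 Mid-age libraries. Flcn rose in VCAM1-Neg (log2 fold change 1.35 ± 0.16, SE, adjusted p = 0.00238), in VCAM1-Low (1.17 ± 0.18, adjusted p = 0.0139) and in VCAM1-High (0.85 ± 0.16, adjusted p = 0.0479), each against Mid-age. The call in VCAM1-Neg was made in 20 of 20 alternative fits, that in VCAM1-Low in 18 of 20, being lost without either VCAM1-Low library, and that in VCAM1-High in 5 of 20. Lamtor2 and Lamtor4, subunits of the Ragulator complex that anchors the Rag GTPases, fell in VCAM1-Neg against Mid-age with log2 fold changes of -1.10 (adjusted p = 0.0254) and -1.17 (adjusted p = 0.0319). Of the calls of other lysosome genes in VCAM1-Neg against Mid-age, that of Galc was made in 7 of 19 alternative fits, that of Atp6v1b2 in 13 of 20, those of Lamtor2 and Lamtor4 in 14 of 20 each, those of Sumf1 and Dnase2a in 15 of 20 each, that of Atp6v1a in 17 of 20 and that of Aga in 18 of 20. Galc passed in 2 of the 11 fits with a single library left out. Without Mid-age replicate 1 none of these 8 genes passed.

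In VCAM1-Neg against VCAM1-High no gene of the 6 lists passed. The smallest p-values in their lists belonged to Flcn (log2 fold change 0.50, adjusted p = 0.490) and Lamtor4 (-0.62, adjusted p = 0.779), to the V-ATPase genes Atp6v1a (-0.79, adjusted p = 0.283) and Atp6ap1 (-0.49, adjusted p = 0.762), and to Sumf1 (-0.45, adjusted p = 0.595) and Aga (-0.77, adjusted p = 0.598). With the replicate block over 11 libraries Atp6v1a passed as lower (adjusted p = 0.0374), against 0.562% of all genes called. Next came Tmem106b (-0.38) and Mfsd8 (-0.36) of the membrane proteins, Gnptg (-0.23) and Igf2r (-0.43) of the sorting genes, and the cystatins Cstb (-0.47) and Cst3 (-0.23), with adjusted p-values of 0.768 or more.

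In VCAM1-High against Mid-age Flcn passed and no other gene of the 6 lists did. Atp6v1b2 had a log2 fold change of 0.87 (adjusted p = 0.199), Atp6v0c one of -0.32 (adjusted p = 0.364), Tmem106b one of 0.46 (adjusted p = 0.256) and Lamtor2 one of -0.72 (adjusted p = 0.243). With the replicate block over 11 libraries Atp6v1b2 (adjusted p = 0.0476) and Dnase2a (adjusted p = 0.0488) passed as higher, both close to the threshold. That fit called 6.98% of all genes, 4.17% as higher, and the numbers are not established as pairs in this comparison. How these calls depend on single libraries was not examined. Sort1 had one of -0.46 (adjusted p = 0.365), Igf2r -0.45 (adjusted p = 0.520), Cstb 0.26 (adjusted p = 0.753) and Cst3 0.04 (adjusted p = 0.953). The cystatins Cst3 and Cstb had log2 fold changes of -0.19 and -0.21 in VCAM1-Neg against Mid-age (adjusted p = 0.603 and 0.698).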

How the data were processed

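RPKM values of 20640 gene symbols in 11 bulk RNA-seq libraries were analysed as the authors deposited them. Per the submitters' processing notes the tools were cutadapt 3.1, Bowtie2 2.1.0, STAR 2.7.5b and SAMtools 0.1.19 with build GRCm39. Not given in the sources used here were their order, the read counter, the annotation and the gene lengths. Per the labels' protocols, the low-input SMART-Seq v4 kit was used for paired-end libraries.

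Depth was estimated from the step that 1 read makes in low RPKM values of genes with a single transcript. The depth was chosen per library to make the most of these values whole read numbers to a tolerance of 0.1. Even so, only 62.5% to 73.0% of them were, so no count test was run. The share by chance is 20% at a depth fixed beforehand, which is not the baseline for a share made largest. GENCODE transcript lengths were used, so depth is an estimate.

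Values were analysed as log2(RPKM + 1), which understates changes of low genes, with limma 3.58.1 (variance trend) in R 4.3.3. A gene entered the tests if 2 or more libraries reached 1 RPKM (11568 genes). All 11 libraries shared one model of 4 group means, and p-values were adjusted by Benjamini-Hochberg over all genes tested. A gene is called at an adjusted p under 0.05. The code was tested on simulated data. Levels carry SD and fold changes SE. Alternatives changed the pseudocount, filter, scaling, variance trend, samples and replicate block.

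Pairing by replicate number was checked by correlating deviations from group means. Same-numbered VCAM1-Neg and VCAM1-High libraries correlated at 0.41, 0.58 and 0.40, and VCAM1-High and Mid-age at 0.21, 0.33 and 0.55. The pairing comes from the data, since the labels do not say what a number marks, and geriatric and Mid-age libraries cannot share animals. VCAM1-High replicate 1 correlated more with Mid-age replicate 2 than with Mid-age replicate 1.

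Members, gene lists and tests were chosen with earlier results of these data known. Values per library are printed for members called in any comparison or with the replicate block, the 4 smallest p-values of each main comparison, the highest and lowest mean of each role, and Glb1, Lamp1, Ctsd and Tfeb. Ctss and Ctsk were added after their values were seen. Of the other lysosome lists, counts, called genes, Cd63 and the 2 smallest p-values of each main comparison are given. Promoter sequences are from RefSeq (GRCm38.p6).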

Additional observations from a re-analysis of the deposited data

How the results depend on the processing

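In VCAM1-Neg against Mid-age the 4 called members became 1 with every gene above 0 tested (no filter, 870 of 18479 genes called). They became 13 with the replicate block over 11 libraries (31.6% of all genes called). Leaving out single libraries gave 0 to 6 members, with 339 to 1836 genes called in all. Same-numbered libraries of these 2 groups correlated at only -0.02, 0.03 and 0.08, so the numbers are not taken as pairs there. In VCAM1-Neg against VCAM1-High the block within the geriatric gates gave 6 called members against 0 without it, and in VCAM1-High against Mid-age the block over 11 libraries gave 2 against 0. Leaving out single libraries gave 0 in both comparisons without the block. With the block, leaving out single libraries gave 0 to 6 and 0 to 4 members, with 19 to 890 and 36 to 1218 genes called in all. These fits were chosen after seeing the data. In VCAM1-Low against Mid-age, 0 called members became 2 with a pseudocount of 0.1 (575 of 11568 genes called) and 2 with a mean of at least 5 RPKM (566 of 7623). They became 1 with equal sums per library (461 of 11573) and 1 with median-of-ratios scaling (563 of 11545). The count was 6 with the replicate block (1827 of 11568, 15.8%) and 4 with only the compared groups (696 of 10959). It was 0 to 3 without single libraries of the other groups (66 to 825 genes). For the F test, 0 became 1 with a mean of at least 5 RPKM (404 of 7623 genes) and 8 with the replicate block (2025 of 11568, 17.5%). It was 0 to 2 without single libraries outside VCAM1-Low (39 to 633 genes). VCAM1-Low has 2 libraries, so when 1 was left out the lone library was assumed to vary like the other groups. In VCAM1-Low against VCAM1-High and VCAM1-Neg against VCAM1-Low the count stayed at 0 in every fit run. The cause of these shifts was not tested.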
